A study of Mus musculus with 2 samples.

Results

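Mitochondrial ribosomal proteins form the ribosome that works inside mitochondria, and their genes were taken here as all non-control probes whose gene name in the scanner files begins with Mrpl (large subunit) or Mrps (small subunit) followed by a digit. The rule found 76 of the 35015 gene names on the array, 47 with a large subunit name and 29 with a small subunit name, through 106 probes in 133 spots. All are encoded in the nucleus, translated in the cytosol and imported. The ribosome they build translates the few messenger RNAs of mitochondrial DNA, all of which encode subunits of the respiratory chain and ATP synthase, so that its supply is tied to respiration. Many members descend from the ribosome of the bacterial ancestor of mitochondria, and others have no bacterial counterpart.

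Microglia, the macrophages that live in brain and spinal cord tissue, were sorted from spinal cord, and their total RNA was hybridised to 1-colour expression arrays. One group of mice served as control and the other was a model of atopic diathesis, a tendency to allergic disease. There was 1 control array, titled normal by the submitters, and 1 atopic diathesis array, titled activated. Strain, age, sex, the way the model was made and the number of mice per sample are not given in the sources used here. Both arrays lie on 1 slide, so the position on the slide and the group cannot be told apart.

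Since each group is a single array, differences could not be checked on replicates, no test was made, and every value describes this pair of samples. A gene counts as measured where at least 1 of its probes was well above background, a flag of the scanner software, on both arrays. Log2 differences are atopic diathesis minus control relative to the median of the 9217 measured genes, and "higher" or "lower" with no size means at least 2-fold, a log2 size of 1. The array error given after ± is the standard error from the scanner software's own error model, and it covers neither animals, sorts nor RNA amplification. For 101 probes with repeated spots, log2 differences had a spot SD of 0.20. It was 0.27 for the 47 of them with a signal under 100 on either array and 0.10 for the others. In bulk RNA, fewer cells of a type and less RNA per cell cannot be told apart. Of the probes on the array, 24.1% were well above background in control and 27.6% in atopic diathesis.

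All 12 microglia markers checked, among them Tmem119, P2ry12 and Cx3cr1, were well above background on both arrays, and their signals summed to 176200 (control) and 160600 (atopic diathesis). None of 7 markers of infiltrating leukocytes was (summed signals 41.6 and 49.98). For neurons 1 of 6 markers was above background on each array, Snap25 at 82155 and 84015, which gave nearly all of the list's summed signals of 82190 and 84060. Astrocyte markers were above background in 2 and 3 of 6 cases (summed signals 809 and 1022, with Aqp4 and Aldh1l1 on neither array), oligodendrocyte markers in 4 and 5 of 6 (1057 and 1028, with Mog on neither) and endothelial markers in 2 of 5 on each (471.5 and 249, with Cldn5 and Cdh5 on neither). Their part in the differences of the ribosomal genes was not tested.

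Each array probe is a 60-base oligonucleotide, and the following carry the results that stand out, with positions in build mm9. Probes whose genomic span shows joined exons are given whole and the others by their first 30 bases.
Mrpl54, the highest member, chr10:80727584-80727643, minus strand: ccacaaccggctgagcaagaacaagaagct
Mrps30, the next highest, chr13:119169203-119169262, minus strand: tggtactctcctgcagatagttcactttct
Mrpl51, the lowest measured member, chr6:125143362-125143421, plus strand: tgaggacctgcataaccttaacaaacggat
Mrps11, the lowest with a small subunit name, across joined exons, chr7:85933622-85935544, plus strand: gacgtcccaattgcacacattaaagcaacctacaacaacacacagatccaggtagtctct
Mrpl34, the clearest member seen in control only, chr8:73989526-73989585, plus strand: tttctgtgaatatatttgaaggcatctttg
Mrps35, printed 10 times and near background, across joined exons, chr6:147009999-147019119, plus strand: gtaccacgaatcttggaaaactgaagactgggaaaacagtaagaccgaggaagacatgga

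Of the 76 genes, 45 (59.2%) were measured on both arrays, 17 were above background in atopic diathesis only, 3 in control only and 11 on neither array. Among all gene names 26.3% were measured, 8.06% were above background in atopic diathesis only and 4.14% in control only. Among the 45 measured members 4 were higher in atopic diathesis (8.89%, against 17.3% of all measured genes) and 11 were lower (24.4%, against 15.6%), and 30 lay within 2-fold. Together 33.3% of the members lay past 2-fold, and 32.9% of all measured genes did. Their median log2 difference was -0.07, where that of all measured genes is 0 by construction, and the values ran from -3.18 to 4.84. The split of 4 higher to 11 lower was 3 to 14 with the 75th percentile over all probes as the scale. It turned to 22 higher and 13 lower among the 65 members with a probe above background on at least 1 array, where all genes gave 29% higher and 21.8% lower. Which direction prevailed thus depended on whether members near background on 1 array were counted.

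**Figure D1:**
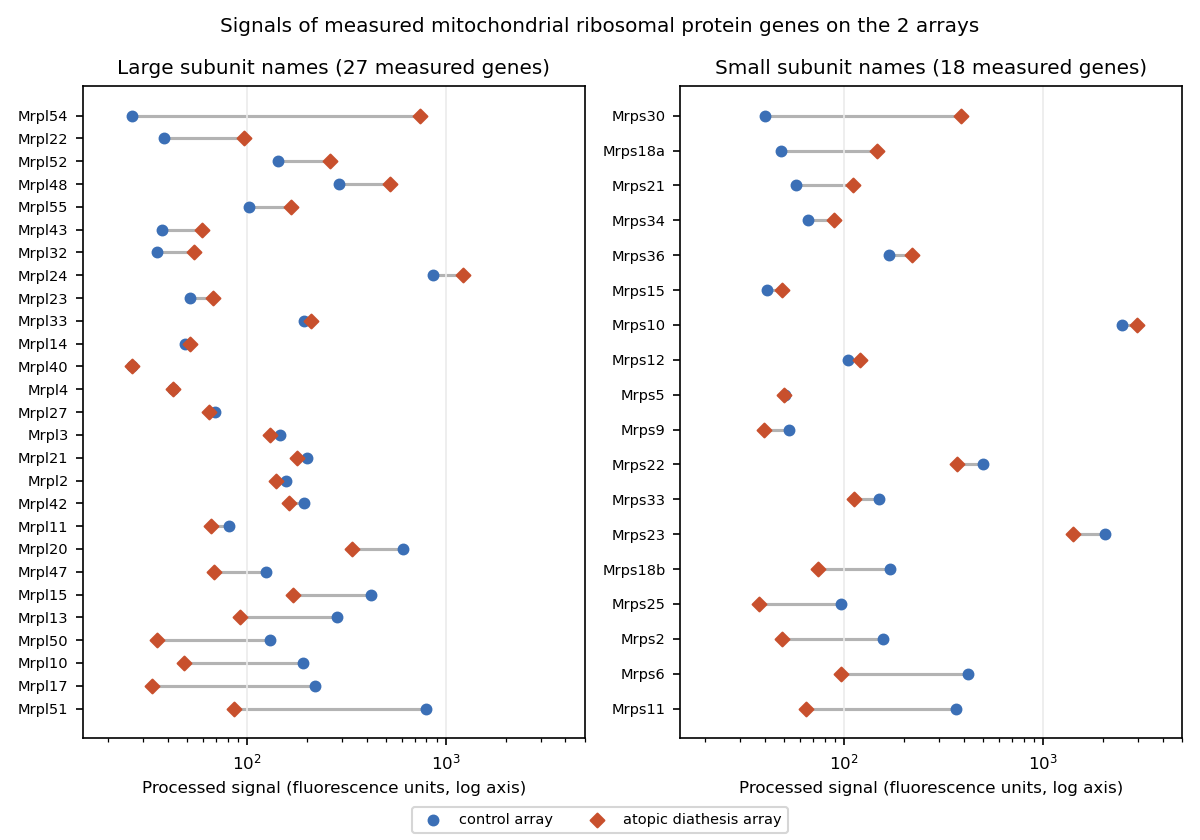
Processed signal (log axis, fluorescence units) of the 45 measured mitochondrial ribosomal protein genes on the control array (circles) and the atopic diathesis array (diamonds), 1 array each, for large and small subunit names, ordered by difference. Mrpl54, at 26.5 and 743, and Mrps30, at 39.8 and 385, have the widest gaps upward, and Mrpl51, at 796 and 85.7, the widest downward.

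Among large subunit names Mrpl54 stood highest. This protein, which has no bacterial counterpart, read 26.5 on the control array and 743 on the other, a log2 difference of 4.84 ± 0.31 (28.7-fold). Its control signal lay close to 19.8, the lowest signal that passed the background flag on that array. With normexp background correction the log2 difference was 3.13, and with uncorrected signals 2.90. Mrpl22, a protein of the tunnel through which new chains leave the ribosome, read 38.2 and 96.5, a log2 difference of 1.37 ± 0.19. Both of its probes were measured and pointed the same way, at 1.14 and 1.60. Its mean passed 2-fold in 8 of 13 settings, and was 0.87 with the 75th percentile over all probes as the scale, 0.96 after quantile normalization, 0.95 in the authors' table, 0.66 with normexp and 0.59 with uncorrected signals. No other measured large subunit name was higher. Of the 27 measured, 7.41% were higher and 22.2% lower, against 17.3% and 15.6% of all measured genes.

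The 6 lower large subunit names were led by Mrpl51, a mitochondria-specific protein, which read 796 in control and 85.7 in atopic diathesis (-3.18 ± 0.22, 9.08-fold lower). Mrpl17, of a family shared with bacteria, read 220.2 and 33.4, a log2 difference of -2.69 ± 0.29. Mrpl10 belongs to the base of the stalk that recruits translation factors, and it read 190.8 and 48.5 (-1.94 ± 0.25). A further Mrpl10 probe, above background in control only, gave 219 and 14.4. Mrpl50 followed at 130.3 and 35.4 (-1.85 ± 0.28), Mrpl13 at 283 and 92.4 (-1.58 ± 0.21) and Mrpl15 at 424 and 170.3 (-1.28 ± 0.21). Except for Mrpl15 and Mrpl50, each of these large subunit names was lower by at least 2-fold under all 13 settings that gave a value, the authors' own table among them. Mrpl15 stood at -0.96 with normexp and -0.91 with uncorrected signals. Mrpl50 stood at -0.94 with normexp, -0.82 with uncorrected signals and -0.69 with no background filter.

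Small subunit names gave 2 higher and 5 lower among 18 measured genes (11.1% and 27.8%, against 17.3% and 15.6% of all measured genes). The higher ones were Mrps30, at 39.8 and 385 (3.30 ± 0.26, 9.88-fold), and Mrps18a, at 47.8 and 146.2 (1.65 ± 0.24). Structures of the mammalian mitochondrial ribosome place both of these proteins in the large subunit in spite of their names. Mrps18a is 1 of 3 relatives of a single bacterial small subunit protein. Its relative Mrps18b, which sits in the small subunit, was lower at 169.6 and 73.6 (-1.17 ± 0.17), and Mrps18c was above background in atopic diathesis only. The 3 relatives therefore did not share a direction.

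Lower small subunit names included members listed here for the platform, the side of the subunit where messenger RNA leaves. Mrps11, a platform protein, read 363 and 64.0 (-2.47 ± 0.23). Mrps6, also of the platform and with a bacterial counterpart, read 420.4 and 95.9 (-2.10 ± 0.21). Of 6 platform genes 5 were measured, and 3 of these were lower, where 15.6% of all measured genes were. Mrps15 (0.30) and Mrps21 (0.99) read above the median gene, Mrps21 lying just under 2-fold at 1.99. The remaining platform gene, Mrps18c, was above background in atopic diathesis only, at least 7.98-fold higher. Mrps2, a protein between head and body, read 156.1 and 48.8 (-1.64 ± 0.18), and the mitochondria-specific Mrps25 read 96.6 and 37.1 (-1.35 ± 0.21). Under other background corrections some small subunit names came inside 2-fold: with normexp and uncorrected signals in turn, Mrps18a stood at 0.99 and 0.89, Mrps18b at -0.73 and -0.65 and Mrps25 at -0.65 and -0.57, and Mrps2 stood at -0.89 with uncorrected signals.

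By name, the median log2 difference was -0.07 for the 27 measured large subunit genes and -0.18 for the 18 small subunit genes. The gap of 0.11 was not tested, since genes are not replicates. Counted by structure instead, with Mrps18a and Mrps30 in the large subunit and Mrps36 left out, the medians were 0.03 for 29 genes and -0.39 for 15 genes, a gap of 0.43 that was not tested either. Mrps36, now known as a part of the 2-oxoglutarate dehydrogenase complex and not of the ribosome, read 167.2 and 218.8 (0.42 ± 0.21). Its other probe was above background in control only, at 48.7 and 12.4, and with both probes averaged the gene stood at -0.94. Counted by structure, all 4 higher members belong to the large subunit (13.8% of its 29 measured genes). The small subunit holds 0 higher and 5 lower genes of 15 measured, where 17.3% of all measured genes were higher and 15.6% lower. The count by structure covers measured Mrp names only. It leaves out the small subunit proteins Chchd1 (4.21) and Aurkaip1 (2.38), which were measured and higher. Members above background on 1 array are left out too. Atopic diathesis only held 9 of 26 small subunit genes and 8 of 49 large, 6 of each at least 2-fold higher by the bound explained below. Of genes above background on at least 1 array these made 36% and 20.5% (all genes 20.8%). Control only held 1 and 2. The lower genes are spread over both subunits, 6 of 29 and 5 of 15 (20.7% and 33.3%, against 15.6% of all measured genes).

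**Figure D2:**
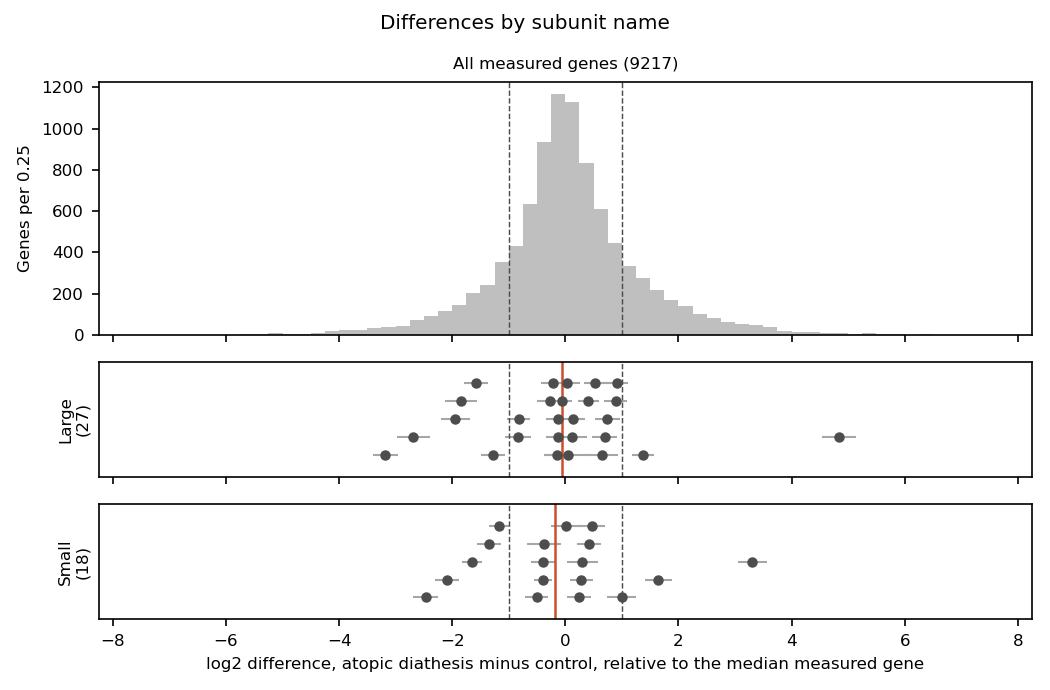
Log2 difference, atopic diathesis minus control, relative to the median measured gene: a histogram of all 9217 measured genes in bins of 0.25 above, and the 27 large and 18 small subunit names below, as points with the array error (± 1 standard error) at arbitrary height, the solid line being each median and dashed lines marking 2-fold. The medians, -0.07 and -0.18, lie close together, and Mrpl54 at 4.84 and Mrps30 at 3.30 stand at the right.

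The measured genes listed for the peptidyl transferase centre, where peptide bonds form, and its surroundings had means near the median gene. These were Mrpl2 (-0.14), Mrpl3 (-0.13), Mrpl4 (0.03) and Mrpl27 (-0.07), and Mrpl16 was not above background on either array. The Mrpl4 mean joins probes of opposite sign, at 0.93 and -0.86, as does that of Mrpl27, at 0.23 and -0.37. The exit tunnel genes Mrpl23 (0.41) and Mrpl24 (0.53) lay above the median gene, as did Mrpl22, and Mrpl47 (-0.84) lay below. The Mrpl47 value rests on 1 of its 4 probes. Its probe at base 394 read 14.5 and 225.5, above background in atopic diathesis only. Of the head and body of the small subunit, Mrps9 (-0.37), Mrps10 (0.29), Mrps5 (0.01) and Mrps12 (0.24), a protein of the decoding centre, were within 2-fold. These measured genes are only some of each list: in the head 3 of 5 genes (Mrps7, Mrps14 and Mrps24) and in the body 2 of 4 (Mrps16 and Mrps17) were above background in atopic diathesis only, as was Mrpl45 of the exit tunnel. Their bounds, all but that of Mrps14 past 2-fold, are given with the members seen on 1 array. Members with a bacterial counterpart had a median of -0.13 (29 measured, 2 higher and 8 lower, or 6.90% and 27.6%). Those without one had a median of 0.04 (15 measured, 2 higher and 3 lower, or 13.3% and 20%). Of all measured genes 17.3% were higher and 15.6% lower. Atopic diathesis only held a further 10 with a counterpart, 8 with a bound of at least 2-fold, and 7 without, 4 with such a bound. Of genes above background on at least 1 array these made 24.4% and 30.4% (all genes 20.8%). Control only held 2 and 1.

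The other members within 2-fold were Mrpl11, Mrpl14, Mrpl20, Mrpl21, Mrpl32, Mrpl33, Mrpl40, Mrpl42, Mrpl43, Mrpl48, Mrpl52 and Mrpl55 in the large subunit and Mrps22, Mrps23, Mrps33 and Mrps34 in the small. They ran from Mrpl20 at -0.83, with signals of 612 and 338, to Mrpl52 at 0.91, with signals of 143 and 262. None of the 6 members in the brightest of 3 equal classes of mean signal lay past 2-fold, against 22.1% of all genes there. In the middle class 8 of 18 did (46.2% of all genes) and in the dim class 7 of 21 (30.4%).

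Members seen on 1 array only were mostly seen in atopic diathesis. For these no fold can be given, and a bound stands in its place. The background limit is the lowest signal that passed the flag on an array, 19.8 in control and 19.9 in atopic diathesis. Some probes read above it without passing, as Mrpl49 did at 23.3 in control. The brighter reading is divided by the other array's limit, or by the probe's own reading there where that is larger. The result is taken relative to the median measured gene like every other difference. That gene's unscaled log2 difference was -0.03, so each bound departs slightly from the plain ratio of the readings. There were 17 in atopic diathesis only, 26.2% of the 65 members above background on at least 1 array, where the share for all genes was 20.8%. Control only held 3, or 4.62%, against 10.7% for all genes. The bound was 2-fold or more for 12 of the 17 and for 1 of the 3, where all such genes gave 59.2% and 51.1%.

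Mrpl36, the smallest of the large subunit proteins in bacteria, read 19.1 in control and 194 in atopic diathesis, at least 10.04-fold higher. Mrps18c read 5.05 and 154.3, at least 7.98-fold. Mrps17, a body protein, read 4.86 and 149 at its brighter probe (at least 7.71-fold), and its other probe, which lies beside it, gave 7.16 and 139.7. Mrps18c and Mrps17 were far below the background limit in control, while Mrpl36 lay just under it, and all 3 were far above it in atopic diathesis. Mrps24, of the head, read 9.98 and 112.7 (at least 5.83-fold), and Mrpl45, which ties the tunnel exit to the inner membrane, read 3.97 and 91.4 (at least 4.73-fold). Mrpl30 and Mrps7, each on probe pairs of the same class, reached at least 4.57-fold and at least 3.98-fold. The remaining bounds past 2-fold belonged to Mrpl37 (3.204), Mrps16 (2.93), Mrpl49 (2.48), Mrpl9 (2.05) and Mrps26 (2.02). Without the centring on the median gene Mrps26 lies just under 2-fold. Mrpl18, Mrpl44, Mrps14, Mrps27 and Mrps35 had bounds from 1.30 to 1.92.

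Mrpl34 went the other way. Its probe read 361 in control and 11.5 in atopic diathesis, at least 17.7-fold lower. Mrpl41 and Mrps28 were also seen in control only, with bounds of 1.30 and 1.34, and their control signals of 27.7 and 27.3 lay close to the background limit. Not well above background on either array were Mrpl1, Mrpl12, Mrpl16, Mrpl19, Mrpl28, Mrpl35, Mrpl38, Mrpl39, Mrpl46, Mrpl53 and Mrps31, 10 of them of the large subunit.

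**Figure D3:**
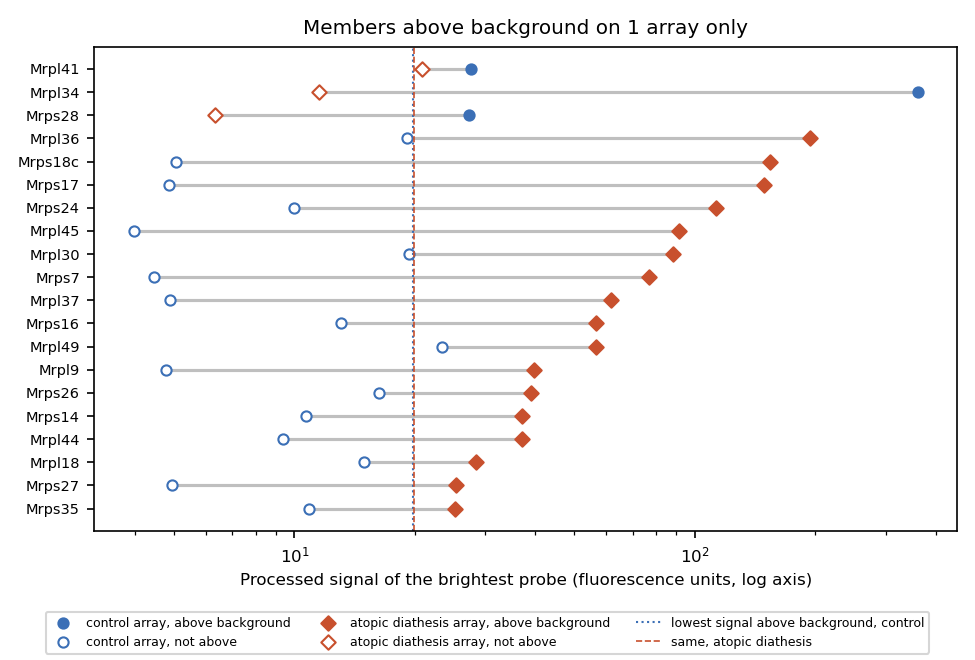
Processed signal (log axis, fluorescence units) of the brightest probe of the 20 members above background on 1 array only, with filled markers where the probe was above background and open markers where it was not, and vertical lines at the lowest signal well above background on each array. The 17 atopic diathesis only members lie to the right of the lines with filled diamonds, up to Mrpl36 at 194, and Mrpl34 at 361 is the widest of the 3 control only members.

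Of the members, 3 had a probe printed 10 times per array, which shows the spot error directly. Mrpl34 spots ran from 332 to 383 in control (median 357.5) and from 7.01 to 19.9 in atopic diathesis (median 13.0), with no overlap and with 10 and 0 spots well above background. Mrpl50 spots ran from 118.3 to 137.1 (median 130.5) and from 28.7 to 45.0 (median 36.6), all well above background and again without overlap. The spot-wise log2 differences of Mrpl50 lay between -2.13 and -1.52, with an SD of 0.20. Mrps35 was less clear: its spots ran from 4.88 to 15.9 (median 13.5) and from 17.0 to 35.4 (median 25.2), with 0 and 7 of 10 well above background. The groups of spots did not overlap there either, but they come from 1 hybridisation each and are no replicates of the mice.

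**Figure D4:**
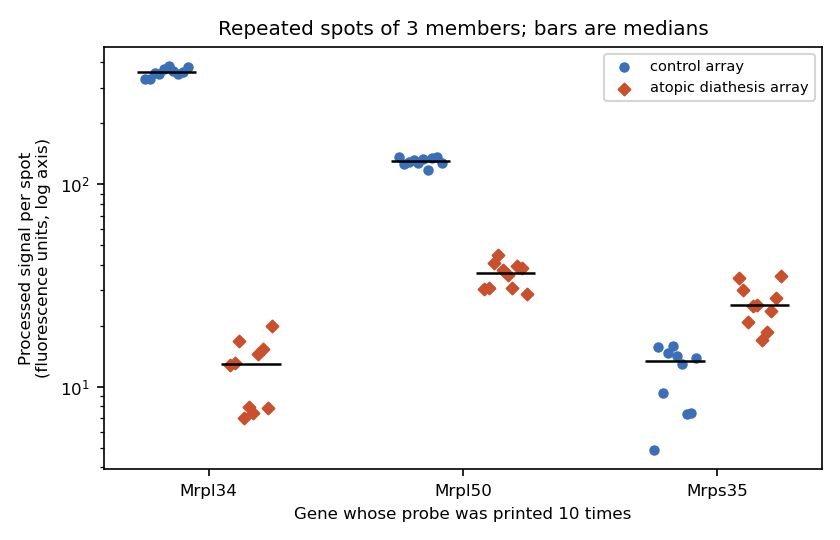
Processed signal (log axis, fluorescence units) of each of 10 spots on the control array (circles) and on the atopic diathesis array (diamonds) for Mrpl34, Mrpl50 and Mrps35, with bars at the medians. The spots of Mrpl34 (332 to 383 against 7.01 to 19.9) and Mrpl50 (118.3 to 137.1 against 28.7 to 45.0) are far apart, and those of Mrps35 (4.88 to 15.9 against 17.0 to 35.4) are adjacent.

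Different probes of a gene did not always tell the same story. Of the 26 members with several probes, 9 had 2 measured probes, and in 7 of these both differences had the same sign. In 4 of the 9 the probes differed by at least 2-fold, where the share among the 1467 genes of the array with at least 2 measured probes was 40.1%. The Mrps25 probes gave -0.29 and -2.41, so that its mean rests on the latter, which lies far downstream at base 5992 of the transcript against base 688. The Mrps2 probes gave -2.17 and -1.12, and those of Mrpl43 gave 0.10 and 1.29. The Mrpl4 probes cancelled out: 31.7 and 59.2 (0.93) at base 995 of the transcript, and 57.1 and 30.7 (-0.86) at base 1225. Probes that share most of their bases cannot count as separate readings, and those of Mrpl23 (55 bases in common), Mrpl40 (52) and the downstream pair of Mrps18b (55) are such pairs.

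Mrpl47, which sits beside the tunnel exit, has 4 probes that disagreed, and the sequences of its probes are given with those of Mrpl4 so that each reading can be traced to its target.
Mrpl47 at base 43, chr3:32635967-32636026, minus strand, first 30 bases: tgcagcaggctcatggccgccatggctaca
Mrpl47 at base 199, chr3:32633037-32633096, minus strand, first 30 bases: tcaaggaaaggactggaagaattttttgat
Mrpl47 at base 394, across joined exons, chr3:32629104-32630111, minus strand: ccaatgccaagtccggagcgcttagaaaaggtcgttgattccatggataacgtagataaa
Mrpl47 at base 1436, chr3:32626187-32626246, minus strand, first 30 bases: agtcagtttggaaatgctgttctcactagt
Mrpl4 at base 995, chr9:20812990-20813049, plus strand, first 30 bases: ttccgtcgccttcctggaggacaagctact
Mrpl4 at base 1225, chr9:20813220-20813279, plus strand, first 30 bases: gtgcctgcctgggatctcttttgtcacatt

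The Mrpl47 probe at base 43 was the measured one, at 124.9 and 68.1. The probes at bases 199 and 394 were above background in atopic diathesis only, at 10.02 and 23.1 and at 14.5 and 225.5, and the probe at base 1436 was on neither array. Mrpl15 showed the same kind of conflict, since its measured probe read lower while a probe at base 2889 read 4.88 and 60.3. Averaged over probes above background on at least 1 array, Mrpl15 turned from -1.28 to 1.01. Member probes above background on both arrays (54) and all probes had the same median GC content, 43.3%. Those above background in atopic diathesis only (25) had 41.7%, as had those on neither array (21).

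**Figure D5:**
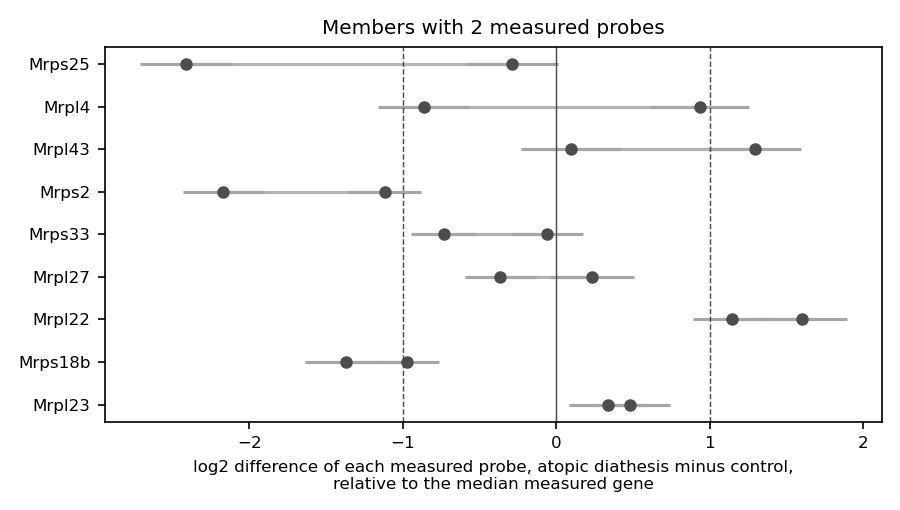
Log2 difference of each probe (atopic diathesis minus control, relative to the median measured gene) for the 9 members with 2 measured probes, with the array error (± 1 standard error), dashed lines at 2-fold and a solid line at 0. Mrps25, at -2.41 and -0.29, and Mrpl4, at -0.86 and 0.93, have the widest gaps.

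A few mitochondrial ribosomal proteins carry other names in the files and so fell outside the rule. Chchd1 and Aurkaip1, both of the small subunit, read 28.4 and 514 (4.21) and 45.7 and 232.6 (2.38). Dap3, also of the small subunit, Ptcd3, which helps bind messenger RNA there, and Gadd45gip1 of the large subunit were above background in atopic diathesis only, at least 1.94-, 4.32- and 1.86-fold higher. The files' Mrp63 and Ict1, which RefSeq names Mrpl57 and Mrpl58, both of the large subunit, gave 1.17 and 1.21, from signals of 28.9 and 63.5 and of 60.5 and 136.8. With genes named by RefSeq, the members split 6 higher to 11 lower.

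Genes that build or serve this ribosome also lay on both sides. For the counts that follow, 17.3% of all measured genes were higher and 15.6% lower. Of 13 translation factor genes 5 were measured, of which Oxa1l, the insertase that receives new chains at the inner membrane, was higher (96.1 and 648, 2.79) and none was lower. The elongation factor Tufm (0.05), the initiation factor Mtif2 (0.28) and the formyltransferase Mtfmt (-0.10) were close to the median gene. Gfm2, at 609 and 975, lay above it (0.71) but within 2-fold. The release factor Mtrf1 was seen in control only, at 1700 and 13.6, at least 83.6-fold lower. Of 26 assembly and ribosomal RNA modification genes 8 were measured, 2 higher and 4 lower (25% and 50%). The higher ones were the GTPase gene Gtpbp10 (3.58) and Rbfa (1.55), and the lower ones Mterf3 (-1.61), Malsu1 (-1.24), Mterf4 (-1.21) and the helicase Dhx30 (-1.18). The methyltransferase Nsun4, a partner of Mterf4, and the small subunit assembly GTPase Eral1 were seen in atopic diathesis only, at least 68.7- and 61.9-fold higher.

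In the list for mitochondrial RNA synthesis and processing, 6 of 20 genes were measured. Grsf1, an RNA granule protein, was higher (2.40), and the RNA-stabilising Lrpprc (-2.46) and Hsd17b10 (-2.28) were lower. That made 16.7% higher and 33.3% lower. All measured genes, the reference for the next lists too, gave 17.3% and 15.6%. Slirp, the partner of Lrpprc, was seen in atopic diathesis only, at least 2.55-fold higher. Of 17 mitochondrial aminoacyl-tRNA synthetase genes 3 were measured, 1 of them lower, Tars2 (-2.22), and none higher. Among 9 regulators of mitochondrial biogenesis 4 were measured, with Esrra lower (749 and 135.6, -2.43) and none higher. Nrf1 and Ppargc1a did not pass the background flag on either array, and Gabpa (at least 2.18-fold higher) and Yy1 (at least 2.77-fold lower) were each seen on 1 array.

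As a comparison, 82 of 85 cytosolic ribosomal protein genes were measured, 6 higher and 3 lower (7.32% and 3.66%). Their median was 0.08 and their differences ran from -2.49 to 1.99. Of 93 respiratory chain and ATP synthase genes 69 were measured, 19 higher and 16 lower (27.5% and 23.2%), with a median of 0.07. All measured genes gave 17.3% and 15.6%. Differences between these families and the mitochondrial ribosomal genes were not tested, since genes are not replicates.

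Promoters of genes for mitochondrial proteins are known to be bound by NRF1, by ETS factors such as GABPA, and by YY1. RefSeq promoter windows of GRCm38.p6, reaching from 250 bases before to 50 bases after the start, were found for 67 of the 76 genes, in 73 windows. The ETS motif CCGGAAG, on either strand, stood in 32.9% of these windows and in 8.86% of all 32851 windows. For the NRF1 motif the shares were 16.4% and 4.603%, and for the YY1 motif AAGATGGCG 11.0% and 1.40%. At least 1 of these motifs, none of which contains another, was in 53.4% of the windows and in 13.6% of all. By direction, 4 of 9 lower genes, 2 of 3 higher genes, 16 of 28 genes within 2-fold and 12 of 16 seen in atopic diathesis only held 1. A match describes letters and does not show that a factor binds.

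The windows of 2 lower genes and 1 higher gene show the motifs, in capitals, from 250 bases before to 30 after the start.
Mrps11 (YY1 motif, reverse strand), chr7:78782881-78783160, plus strand: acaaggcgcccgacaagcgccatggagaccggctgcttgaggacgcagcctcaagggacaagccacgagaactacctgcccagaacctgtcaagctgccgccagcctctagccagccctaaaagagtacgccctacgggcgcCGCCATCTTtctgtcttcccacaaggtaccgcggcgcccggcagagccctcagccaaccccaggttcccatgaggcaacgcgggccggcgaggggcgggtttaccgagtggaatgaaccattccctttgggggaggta
Mrpl17 (ETS and NRF1 motifs), chr7:105811058-105811337, minus strand: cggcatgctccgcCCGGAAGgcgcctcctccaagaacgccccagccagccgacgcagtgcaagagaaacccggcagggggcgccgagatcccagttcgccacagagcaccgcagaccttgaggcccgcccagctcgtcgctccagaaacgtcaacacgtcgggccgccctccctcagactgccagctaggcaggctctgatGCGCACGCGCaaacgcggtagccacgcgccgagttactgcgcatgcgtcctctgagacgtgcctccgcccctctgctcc
Mrps18a (ETS and YY1 motifs), chr17:46110754-46111033, plus strand: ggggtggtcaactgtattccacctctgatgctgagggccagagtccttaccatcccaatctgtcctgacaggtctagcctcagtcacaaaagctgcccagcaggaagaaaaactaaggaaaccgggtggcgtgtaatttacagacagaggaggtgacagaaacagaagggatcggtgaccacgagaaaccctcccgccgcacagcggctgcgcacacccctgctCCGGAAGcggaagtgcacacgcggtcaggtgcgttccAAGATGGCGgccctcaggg

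Many of these genes start back to back with a neighbour on the opposite strand. In GRCm38.p6, 25 of the 67 genes (37.3%) had a divergent neighbour whose start lay within 1000 bases, against 12.25% of all 27025 genes in the table. Mrps11 and Mrpl46 form such a pair, with starts 42 bases apart, so the Mrps11 window above also covers the Mrpl46 start. Mrps11 was lower, and Mrpl46, at 5.03 and 13.3, did not pass the background flag on either array. In 6 pairs both genes were measured, 4 with the same sign and 2 with opposite signs. Several of the values lay within the spot SD of 0.20, such as Mrpl21 (-0.14) and its neighbour Ighmbp2 (-0.11), so their signs are uncertain. The share of equal signs among other gene pairs was not computed. Mrps18b and Ppp1r10 stood at -1.17 and 1.47, Mrpl14 and Tmem63b at 0.12 and 2.07, and Mrpl32 and the proteasome gene Psma2 at 0.66 and 1.23. Mrpl47 and the complex I gene Ndufb5 stood at -0.84 and -0.08. Mrpl43 (0.69) starts beside Twnk, the mitochondrial DNA helicase, which was seen in atopic diathesis only, at least 12.8-fold higher, and Mrpl30 beside Mitd1, both of them in atopic diathesis only.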

How the data were processed

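Total RNA of sorted spinal cord microglia was labelled with Cy3 after low-input amplification, per the labels' protocols. The deposited scanner files give, spot by spot, fluorescence intensity on a linear scale and 0 or 1 flags from Agilent Feature Extraction, version 10.7.1.1 per the file headers and 9.5.1.1 per the submitters' processing notes. The authors' series table, also intensity (median 6.64 in each column), holds equal sorted values in both columns, to within 0.01 in log2 at 100% of ranks. No source used here states that step.

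Control spots and outlier spots (136 and 122 of 59305) were left out, the log2 processed signal was averaged over the spots of each of 55681 probes, and a probe counted as above background where over 50% of its spots were flagged so. Gene values are means over probes above background on both arrays, centred on the median measured gene. No spot was saturated. Of 106 member probes, 98 matched a RefSeq accession of the same symbol and 8 matched none. Probe positions were taken from the files (mm9). Steps were tested on simulated data. R 4.3.3 with limma 3.58.1 and Python 3.11.15 were used.

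Members and lists were chosen with earlier results of these data known. Values are given for members past 2-fold or with a bound past 2-fold, members whose probes differ by 2-fold, and members whose name and place differ, and, from each pathway list, for at most 4 measured genes per direction past 2-fold. Other genes are named as lists' well-known members, chosen after their values were seen. Alternatives were other scalings, background corrections, filters, probe choices and gene names.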

Additional observations from a re-analysis of the deposited data

How the results depend on the processing

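All 15 members past 2-fold kept their direction under every scaling and background correction tried, and 14 or 15 stayed past 2-fold under each scaling. With normexp 9 did and with uncorrected signals 8. The exception in direction was Mrpl15, at 1.01 where a probe above background on either array sufficed and 1.11 with no background filter. The count of higher members, 4, became 2 with normexp, 2 with uncorrected signals, 22 where either array sufficed, 22 with no filter and 0 with signals of at least 100 on both arrays, which left 18 members. The count of lower members, 11, became 7, 6 and, at signals of at least 100, 1. The median of all measured members, -0.07, became -0.57 by the 75th percentile of all probes, -0.41 by quantile normalization, -0.40 in the deposited table, 0.18 where either array sufficed and 0.31 with no filter. In the same order the large subunit median became -0.57, -0.38, -0.38, 0.23 and 0.33, and the small subunit median -0.68, -0.42, -0.42, 0.15 and 0.29, and -0.39 with subunits by structure. The looser filters add members that are dark on 1 array. Keeping outlier spots left the counts of 17 and 3 members seen on 1 array as they were. No paired analysis was possible because each group has 1 array. Signals near background limit the fold of Mrpl54 and all bounds. Other sizes also depended on the background correction. With uncorrected signals Mrps30 went from 3.30 to 1.94, Mrpl17 from -2.69 to -1.35 and Mrpl10 from -1.94 to -1.05.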
